A study of Mus musculus with 12 samples.

Results

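Intracranial melanomas from 6 mice that received combined antibodies against PD-1 and CTLA-4 (PC blockade) were compared with those from 3 mice that received IgG control antibodies, by mRNA-seq of the whole tumor. The members were chosen from the sample labels alone, as the 3 tumors labelled CD8L and the 3 labelled CD8H against the 3 labelled IgG, and make 9 of the 12 libraries of the series. All mice were C57Bl6 of WT genotype, young adults of either sex according to the study's methods. The 4 Y-linked genes examined had 0 counts in all 9 tumors, and the X-linked gene Xist had 799 to 15042. No male host therefore showed in these libraries. B16-OVA melanoma cells, which carry the model antigen ovalbumin, were placed under the skin of the flank, and 3 days later B16-OVA/Fluc cells were implanted in the striatum. The submitters' design text gives doses on days 5 and 7 after the brain implantation, with tumor isolation on day 8, and the study's methods give other dosing days. Each library came from a separate mouse, so p-values measure the spread between mice. The treated tumors had been divided by the study into high (CD8H) and low (CD8L) abundance of CD8+ T cells in these same tumors, and that division was made after treatment. The number of treated mice from which the 6 were drawn is not given in the sources used here, and their mean describes these 6 tumors. B16-OVA is 1 cell line with a foreign antigen and a second tumor in the flank of the same host.

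PD-1, encoded by Pdcd1, is an inhibitory receptor that activated T cells display and that its ligands PD-L1 (Cd274) and PD-L2 (Pdcd1lg2) engage on tumor and myeloid cells. CTLA-4 competes with the costimulatory receptor CD28 for the ligands CD80 and CD86. Antibodies against both release T cells from this restraint, and activated T cells and NK cells secrete interferon gamma, which induces guanylate-binding proteins, antigen presentation and the chemokines Cxcl9, Cxcl10 and Cxcl11.

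Total counts were 16977351 to 21288843 per IgG tumor (median 19228231) and 18037533 to 26416214 per treated tumor (median 20993750). Levels are CPM, counts scaled by the size of the library after TMM normalization, and fold changes are PC minus IgG on the log2 scale with their standard error (SE). After removal of genes with low counts, 17220 of the 54532 listed genes entered 1 edgeR quasi-likelihood fit of 6 against 3 tumors. Melanocyte genes marked every library as melanoma, with a list mean of 8.43 to 8.58 log2 CPM in IgG tumors and 7.83 to 8.58 in treated tumors, the lowest in CD8H tumor 2. Brain tissue was present in unequal amounts in both arms. The mean of 20 neuron markers was 2.90, 6.15 and 5.65 in the IgG tumors, 2.85, 3.14 and 5.51 in the CD8L tumors and 2.95, 7.09 and 4.43 in the CD8H tumors. The arms overlapped widely in this mean. In bulk tumors, fewer cells of a type and less RNA per cell cannot be told apart.

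The mean of the 6 treated tumors differed little from the mean of the 3 IgG tumors, and no gene passed the test for an effect of treatment. The median log2 fold change over all 17220 genes was 0.017, with 9194 genes above 0 and 8026 below, and the median size of the shift in mean log2 CPM, in either direction, was 0.147. edgeR called 0 genes (0% of those tested) where a call needed both p and the Benjamini-Hochberg adjusted value to be 0.05 or less, and the smallest adjusted p was 1. At an unadjusted p up to 0.05, 207 genes (1.2%) were higher and 42 (0.244%) were lower in treated tumors. Together these were 1.45% of genes in the edgeR fit, a smaller share than a threshold of 0.05 gives without any effect. The smallest unadjusted edgeR p of any gene was 0.00506, for AI847159, a gene of low level. DESeq2 and limma voom also called 0 genes, with 470 and 2157 genes at an unadjusted p up to 0.05. Of these, only the limma voom share was above 0.05. An edgeR log2 fold change of more than 1 was estimated upward in 690 genes and downward in 33. This measure compares mean levels and not mean log2 levels. A few tumors with high levels therefore raise it more than the shift in mean log2 CPM. The biological coefficient of variation was 0.458 in this fit, in which the difference between CD8L and CD8H tumors counts as spread. When CD8L and CD8H tumors were given separate means and the average of both was set against IgG, edgeR again called 0 genes, with 795 at an unadjusted p up to 0.05. On the first 2 principal components, which held 57.2% and 21.4% of the variance, the 3 IgG tumors lay inside the range of the treated tumors on the first, while on the second IgG tumors 2 and 3 were the highest of all 9 and CD8H tumor 1 the lowest. By unadjusted p, Ifit1, an interferon-induced antiviral gene, Tmem141 and the chemokine gene Ccl7 were among the leading genes with higher values, and Igfbp7, a vessel wall protein gene, Aqp2 and Mfge8 among those with lower values.

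**Figure D1:**
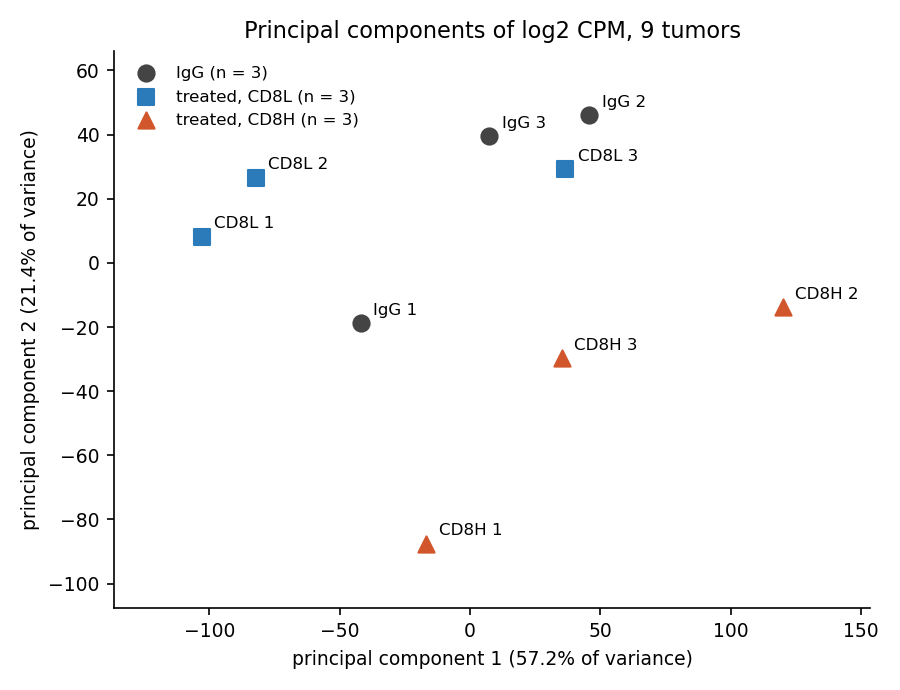
Principal components of log2 CPM over 17220 genes, 1 point per tumor, with the share of variance on each axis (57.2% and 21.4%). On the first component the 3 IgG tumors (circles) lie inside the range of the treated tumors, with CD8L tumors 1 and 2 (squares) at the left and CD8H tumor 2 (triangle) at the right, and on the second IgG tumors 2 and 3 are the highest and CD8H tumor 1 the lowest.

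The 6 treated tumors differed from each other more than the 3 IgG tumors did. They join tumors labelled low and high in CD8+ T cells, while the IgG tumors were not divided. How the 6 were drawn is not given, so this spread describes them and not treated mice in general. The mean absolute difference in log2 CPM between pairs of tumors was 0.26 for the median gene among IgG tumors and 0.462 among the 6 treated tumors. It was 0.354 within the CD8L tumors and 0.398 within the CD8H tumors, so both subgroups were also wider than the IgG group when taken alone. The difference was larger among treated than among IgG tumors in 13814 genes (80.2%), with a median ratio of 1.67. Without IgG tumor 1 that ratio was 2.48, and over the other single tumors left out it ranged from 1.46 to 1.85. After regression of each gene on the neuron marker mean the ratio was 1.24, and 64.6% of genes were wider among treated tumors. The division into CD8H and CD8L held 33.9% of the sum of squares among treated tumors for the median gene. For 16349 genes (94.9%) the IgG mean fell inside the range of the treated values, and for 12247 (71.1%) all 3 IgG values did. The IgG mean profile was 0.346 log2 units (root mean square over genes) from the mean of all treated tumors, 0.485 from the CD8L mean and 0.631 from the CD8H mean, whereas the CD8L and CD8H means were 0.888 apart. These distances are descriptions and share the same IgG tumors.

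**Figure D2:**
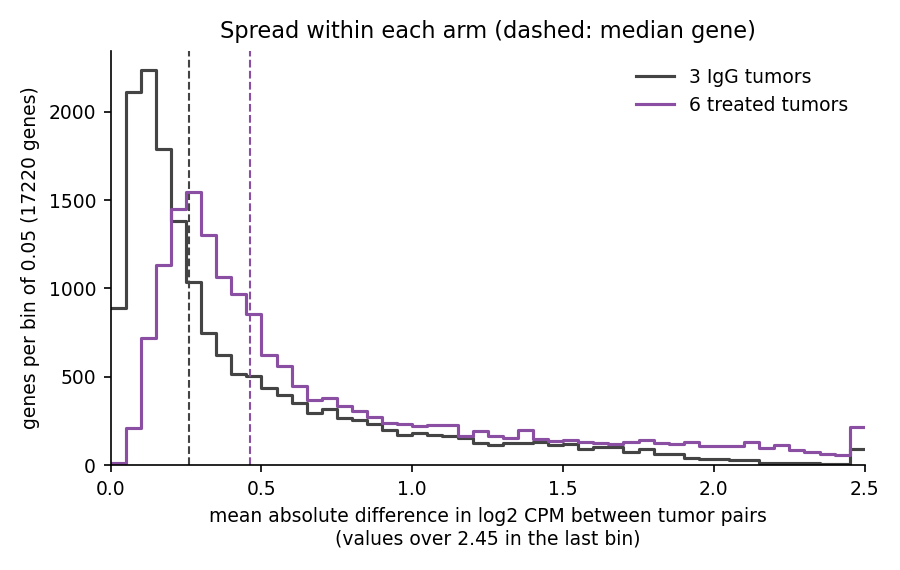
Histogram of the mean absolute difference in log2 CPM between pairs of tumors (x axis) over 17220 genes (y axis, genes per bin of 0.05) for the 3 IgG and the 6 treated tumors, with dashed lines at the medians of 0.26 and 0.462. The curve of the treated tumors is shifted to larger differences.

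CD8L tumors 1 and 2 left the IgG range mainly downward and the CD8H tumors mainly upward, while CD8L tumor 3 had similar numbers of genes on both sides. In CD8L tumors 1, 2 and 3, 21, 39 and 53 genes lay more than 1 log2 unit above the highest IgG value, and 1423, 823 and 51 lay more than 1 unit below the lowest. In CD8H tumors 1, 2 and 3, 1104, 1812 and 424 genes lay above the IgG range by this margin and 257, 395 and 52 below it. CD8L tumor 3 and CD8H tumor 3 were the nearest of their subgroups to IgG. No gene was beyond the IgG range by 1 unit on the same side in 5 or 6 treated tumors, and 11 genes above and 2 below were so in 4.

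**Figure D3:**
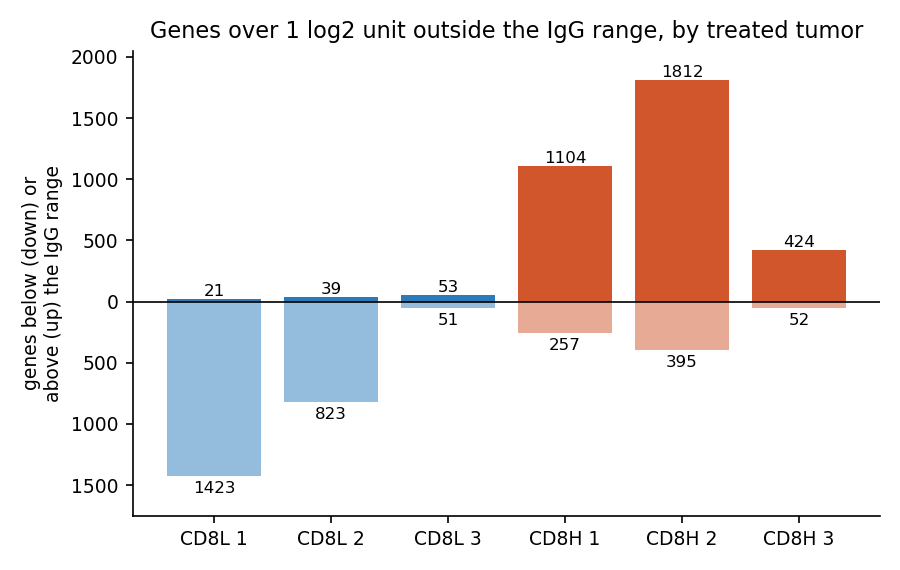
Number of genes (y axis) more than 1 log2 unit above the highest IgG value (upward bars) or below the lowest (downward bars) in each of the 6 treated tumors (x axis). CD8H tumors have the tall upward bars (424 to 1812 genes), and CD8L tumors 1 and 2 the tall downward bars (1423 and 823).

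A minority of genes kept all 6 treated tumors on 1 side of all 3 IgG tumors. All treated values were above all IgG values in 107 genes (0.621% of those tested) and below them in 51 (0.296%). Without IgG tumor 1 these counts were 438 and 206, without IgG tumors 2 or 3 they were 240 and 189 or 230 and 185, without CD8L tumors 1, 2 or 3 they were 198 and 179, 249 and 241 or 161 and 91, and without CD8H tumor 2 they were 200 and 84. None of these genes passed the adjusted test. Some genes would separate in this way without any effect of treatment. That share was not computed here, so neither count shows an effect of treatment, and the genes named below for lack of overlap are descriptions.

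Among the genes with higher values, Tmem141, which encodes a small transmembrane protein, had nearly the same level in all treated tumors. Tmem141 (ENSMUSG00000026939, chromosome 2 from 25620067 to 25622005 of GRCm38.p6) was 3.62, 3.66 and 3.88 CPM in the IgG tumors, 5.64, 5.85 and 5.88 CPM in the CD8L tumors and 5.59, 6.38 and 5.58 CPM in the CD8H tumors (log2 fold change 0.64, SE 0.19, edgeR unadjusted p = 0.00688). Its treated values spanned less than 1 CPM and stood clear of the IgG values, and the CD8L and CD8H fold changes against the same IgG tumors were 0.64 and 0.65. Trmt1l, a member of the tRNA methyltransferase 1 family, was 37.3, 34.4 and 36.8 CPM in the IgG tumors, 42.9, 42.4 and 43.6 CPM in the CD8L tumors and 43.95, 46.5 and 43.9 CPM in the CD8H tumors (log2 fold change 0.28, SE 0.09, edgeR unadjusted p = 0.00983). Slc30a1, which encodes the plasma membrane zinc exporter ZnT1, was 30.4, 24.1 and 31.6 CPM in the IgG tumors, 38.2, 39.1 and 35.6 CPM in the CD8L tumors and 39.2, 42.2 and 33.9 CPM in the CD8H tumors (log2 fold change 0.40, SE 0.12, edgeR unadjusted p = 0.00969). Both were close in the treated subgroups and overlapped nowhere with IgG. Ap3s1, a subunit of the AP-3 adaptor complex of endosomal transport, was 57.1, 55.04 and 54.99 CPM in the IgG tumors, 65.7, 63.1 and 64.5 CPM in the CD8L tumors and 72.4, 66.3 and 64.7 CPM in the CD8H tumors (log2 fold change 0.25, SE 0.08, edgeR unadjusted p = 0.0124). Tpmt, the thiopurine methyltransferase, was 6.19, 7.32 and 6.91 CPM in the IgG tumors, 10.6, 7.88 and 8.92 CPM in the CD8L tumors and 13.01, 8.305 and 10.4 CPM in the CD8H tumors with a log2 fold change of 0.53 (SE 0.21). Adamtsl4, a secreted protein of the extracellular matrix, was 14.1, 13.3 and 12.3 CPM in the IgG tumors, 16.3, 17.6 and 18.1 CPM in the CD8L tumors and 31.7, 30.1 and 23.1 CPM in the CD8H tumors (log2 fold change 0.78, SE 0.25, edgeR unadjusted p = 0.0121), and here the CD8H tumors were the higher subgroup. Calhm5, a member of the calcium homeostasis modulator family, was 17.9, 16.6 and 19.6 CPM in the IgG tumors, 27.4, 25.9 and 21.4 CPM in the CD8L tumors and 32.6, 36.6 and 21.4 CPM in the CD8H tumors, a log2 fold change of 0.61 (SE 0.20). The remaining genes that the naming rule gave were Gstt3, a glutathione transferase, 4930539E08Rik, Gm12530 and C130026I21Rik, with log2 fold changes of 0.91, 0.64, 0.51 and 2.17. C130026I21Rik was the least even of these, at 6.61, 4.33 and 4.34 CPM in CD8L and 34.8, 26.8 and 16.9 CPM in CD8H tumors against 4.08, 2.76 and 3.55 in IgG tumors.

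Of the genes named for a small p or for lack of overlap with lower values, Igfbp7, Cd93, Bcl6b, Ehd2, Fgd5 and Adamts9 are given first. None was called, none is on the list of endothelial markers, and they were put together after their values were seen. Igfbp7, a secreted insulin-like growth factor binding protein that endothelial cells deposit in the vessel wall (ENSMUSG00000036256, chromosome 5 from 77349240 to 77408041), was 74.4, 71.4 and 78.4 CPM in the IgG tumors, 57.9, 59.9 and 52.8 CPM in the CD8L tumors and 56.5, 36.1 and 56.7 CPM in the CD8H tumors (log2 fold change -0.49, SE 0.15, edgeR unadjusted p = 0.00998). Every treated tumor was under every IgG tumor, and CD8H tumor 2 was the lowest. Cd93, a C-type lectin-like receptor of endothelial and myeloid cells (ENSMUSG00000027435, chromosome 2 from 148436640 to 148443563), was 56.8, 51.1 and 53.7 CPM in the IgG tumors, 36.1, 49.5 and 41.7 CPM in the CD8L tumors and 40.05, 29.01 and 45.2 CPM in the CD8H tumors (log2 fold change -0.42, SE 0.16, edgeR unadjusted p = 0.0243). Bcl6b, a transcriptional repressor enriched in endothelium, was 6.89, 6.603 and 4.83 CPM in the IgG tumors, 2.798, 4.5 and 4.097 CPM in the CD8L tumors and 3.33, 2.63 and 4.56 CPM in the CD8H tumors (log2 fold change -0.74, SE 0.26, edgeR unadjusted p = 0.0198). Both CD8L and CD8H means were below IgG, with log2 fold changes against IgG of -0.39 and -0.59 for Igfbp7, -0.34 and -0.50 for Cd93 and -0.69 and -0.80 for Bcl6b. Ehd2, which encodes a caveolar ATPase, was 22.1, 22.3 and 21.7 CPM in the IgG tumors, 16.9, 20.98 and 16.3 CPM in the CD8L tumors and 13.5, 15.02 and 15.6 CPM in the CD8H tumors (log2 fold change -0.43, SE 0.16, edgeR unadjusted p = 0.0218). Fgd5, an endothelial guanine nucleotide exchange factor for Cdc42, was 6.64, 8.46 and 6.77 CPM in the IgG tumors, 4.62, 6.47 and 5.35 CPM in the CD8L tumors and 4.77, 4.63 and 6.46 CPM in the CD8H tumors, a log2 fold change of -0.44 (SE 0.21). Adamts9, a secreted metalloprotease, was 10.3, 12.8 and 9.51 CPM in the IgG tumors, 4.704, 7.93 and 8.58 CPM in the CD8L tumors and 9.01, 5.47 and 9.43 CPM in the CD8H tumors, a log2 fold change of -0.53 (SE 0.26). Both had all 6 treated tumors below all 3 IgG tumors by narrow margins.

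The list of 18 endothelial markers had 3 members with a positive and 15 with a negative fold change, 0 called by edgeR and 2 at an unadjusted p up to 0.05, both lower, against 42 lower genes (0.244%) over all genes tested. Its median log2 fold change was -0.31, with -0.45 in CD8L and -0.15 in CD8H tumors against the same IgG tumors. The list mean in log2 CPM was 4.02, 4.41 and 4.23 in the IgG tumors, 3.32, 3.67 and 4.08 in the CD8L tumors and 4.03, 4.27 and 4.26 in the CD8H tumors. CD8L tumors 1 and 2 were the lowest, and the CD8H means overlapped the IgG means. Esam, an adhesion molecule of endothelial junctions, was 17.2, 20.2 and 20.7 CPM in the IgG tumors, 11.2, 15.8 and 15.5 CPM in the CD8L tumors and 14.2, 14.5 and 16.9 CPM in the CD8H tumors (log2 fold change -0.40, SE 0.16, edgeR unadjusted p = 0.0347), with no overlap. Kdr, which encodes the VEGF receptor VEGFR2, was 38.8, 50.96 and 43.8 CPM in the IgG tumors, 22.3, 44.2 and 32.5 CPM in the CD8L tumors and 23.5, 31.2 and 36.4 CPM in the CD8H tumors (log2 fold change -0.49, SE 0.22, edgeR unadjusted p = 0.0483), with CD8L tumor 2 inside the IgG range. Cdh5, which encodes VE-cadherin, was 31.2, 32.5 and 33.7 CPM in the IgG tumors, 22.9, 32.3 and 25.5 CPM in the CD8L tumors and 27.8, 18.7 and 25.7 CPM in the CD8H tumors, a log2 fold change of -0.35 (SE 0.16). The basement membrane genes Col4a2 and Lamb1, from a list of 30 extracellular matrix genes with a median of -0.26, had log2 fold changes of -0.48 (SE 0.20) and -0.39 (SE 0.17), and both had CD8L tumor 2 at IgG level. Without IgG tumor 1 the median of the matrix list was 0, with 15 of 30 positive. Without single IgG tumors the median of the endothelial list was -0.38, -0.25 and -0.30, and without single treated tumors it lay between -0.37 and -0.20. The mean of 16 fibroblast and pericyte markers was 4.08, 3.58 and 3.02 in the IgG tumors, 2.58, 2.87 and 3.16 in the CD8L tumors and 3.84, 3.77 and 3.56 in the CD8H tumors, so that IgG tumor 1 was the highest of all 9. The part of this stromal content in the lower vessel genes was not tested.

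Other genes with small p-values and lower levels were Mfge8, a secreted bridge between apoptotic cells and phagocytes, and Nes, which encodes the intermediate filament nestin. Mfge8 (ENSMUSG00000030605, chromosome 7 from 79133768 to 79149060) was 90.4, 80.01 and 85.99 CPM in the IgG tumors, 77.2, 61.4 and 68.98 CPM in the CD8L tumors and 65.97, 74.4 and 69.4 CPM in the CD8H tumors (log2 fold change -0.30, SE 0.10, edgeR unadjusted p = 0.0114), and CD8L and CD8H tumors had similar shifts, at -0.30 and -0.29. Nes was 74.3, 80.8 and 75.6 CPM in the IgG tumors, 54.3, 75.04 and 46.2 CPM in the CD8L tumors and 54.1, 62.9 and 51.7 CPM in the CD8H tumors (log2 fold change -0.42, SE 0.14, edgeR unadjusted p = 0.0166), with CD8L tumor 2 inside the IgG range. Aqp2, an aquaporin, was 2.11, 4.62 and 2.698 CPM in the IgG tumors, 1.34, 1.29 and 2.07 CPM in the CD8L tumors and 0.578, 0.96 and 1.38 CPM in the CD8H tumors (log2 fold change -1.30, SE 0.40, edgeR unadjusted p = 0.0101). The low p of Mmp12, the macrophage metalloelastase, rested on 1 library. Mmp12 was 46.05, 0.54 and 0.947 CPM in the IgG tumors, 0.365, 0.113 and 0.53 CPM in the CD8L tumors and 1.45, 1.13 and 1.08 CPM in the CD8H tumors, and its log2 fold change of -4.34 turned to 0.055 without IgG tumor 1. Ctsk, which encodes cathepsin K, was likewise highest in IgG tumor 1, at 11.9, 3.96 and 2.27 CPM in the IgG tumors, 3.29, 1.12 and 1.88 CPM in the CD8L tumors and 2.31, 2.71 and 2.92 CPM in the CD8H tumors. Kctd17 was 96.98, 143 and 116 CPM in the IgG tumors, 96.02, 88.5 and 99.3 CPM in the CD8L tumors and 80.7, 98.8 and 89.9 CPM in the CD8H tumors (log2 fold change -0.36, SE 0.13, edgeR unadjusted p = 0.0178), and Adnp, a homeodomain protein, Pycr1, an enzyme of proline synthesis, Gm45133 and C030006K11Rik had no overlap and log2 fold changes between -0.64 and -0.44.

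**Figure D4:**
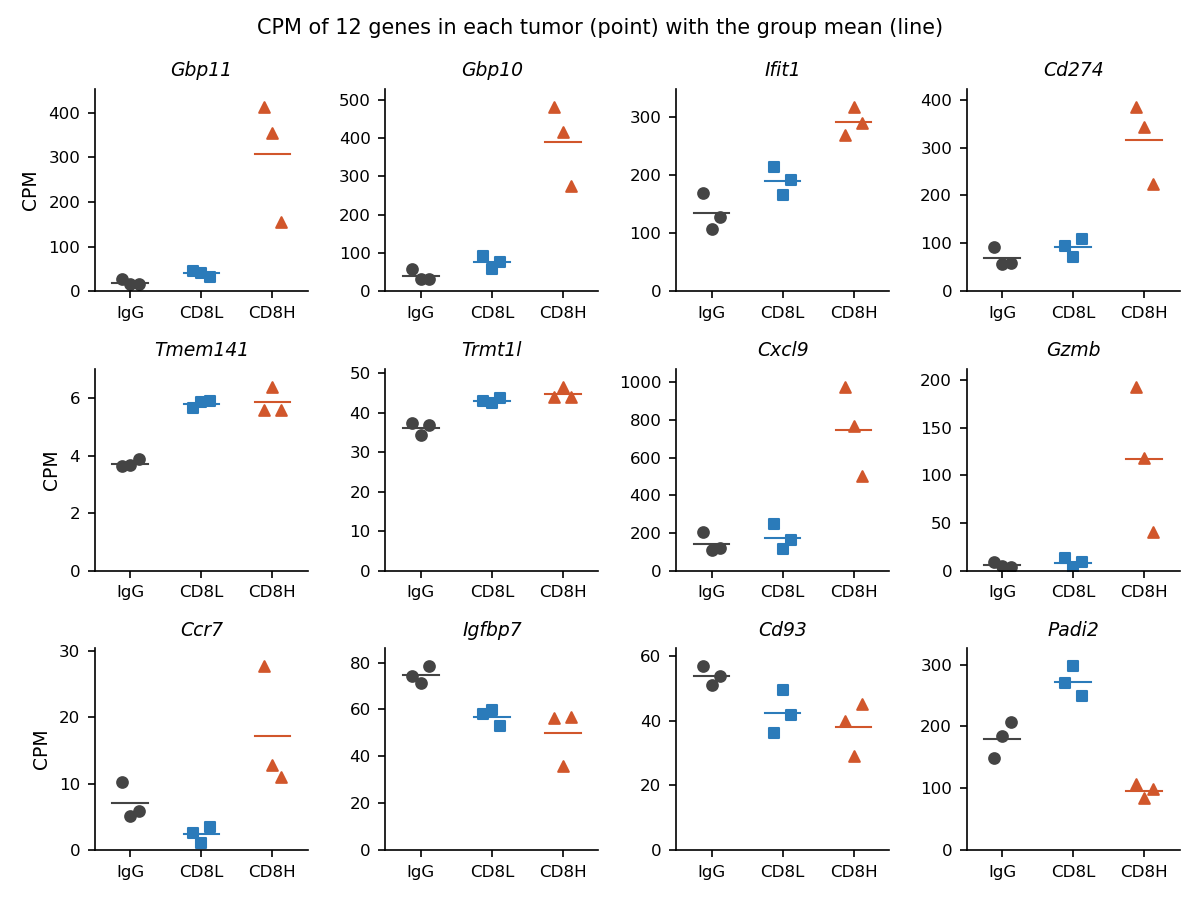
CPM (y axis, from 0) of 12 genes in IgG, CD8L and CD8H tumors (n = 3 each), 1 point per tumor with a line at the group mean. Gbp11, Tmem141 and Trmt1l have every treated tumor above every IgG tumor, Igfbp7 and Cd93 have every treated tumor below, Cxcl9 and Gzmb are high in the CD8H tumors with the CD8L tumors near IgG, and Ccr7 and Padi2 leave the IgG values in opposite directions in the subgroups.

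Of the gene lists, the interferon gamma response had the largest count of genes with a small unadjusted p in the fit of 6 against 3 tumors, and in the fit of 12 libraries it had 11, against 12 for T cell markers. The lists share some genes, such as Ciita, Cd274 and Cxcl9 of this list, so the counts of different lists are not independent. All 34 genes of the interferon gamma response list had a positive fold change (9194 of 17220 over all genes), with 0 called by edgeR and 17 at an unadjusted p up to 0.05 and higher, against 207 genes (1.2%) over all genes tested. The median log2 fold change was 1.04 (0.017 over all genes), composed of 0.23 in CD8L and 1.60 in CD8H tumors against the same IgG tumors. The count of 17 depended on single libraries. It was 12 without IgG tumor 1, 1 without IgG tumor 2, 1 without IgG tumor 3, 6, 7 and 8 without CD8H tumors 1, 2 and 3, and 27 without CD8L tumor 2, whereas the median stayed between 0.80 and 1.32 over the tumors left out in turn. The list mean was 6.61, 6.06 and 6.07 in the IgG tumors, 6.75, 6.01 and 6.57 in the CD8L tumors and 8.41, 7.97 and 7.71 in the CD8H tumors log2 CPM, so 4 of 6 treated tumors were above every IgG tumor, CD8L tumor 3 was inside the IgG range and CD8L tumor 2 was below it.

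The guanylate-binding proteins are interferon-induced GTPases that act against intracellular pathogens. Every tested member had a positive pooled fold change, from 0.84 for Gbp7 to 3.87 for Gbp2b. None was called in CD8L tumors against IgG, where the log2 fold changes ran from -0.04 for Gbp7 to 1.06 for Gbp11. Gbp11, annotated as a polymorphic pseudogene (ENSMUSG00000092021, chromosome 5 from 105323042 to 105346472), was 26.5, 15.4 and 15.6 CPM in the IgG tumors, 46.4, 41.01 and 32.6 CPM in the CD8L tumors and 412, 356 and 155 CPM in the CD8H tumors (log2 fold change 3.18, SE 0.99, edgeR unadjusted p = 0.0101). Although it is outside the list, it had the largest log2 fold change of the genes without overlap at a mean log2 CPM of at least 2, the level that the naming rule asks for. Gbp10 was 58.4, 30.7 and 31.9 CPM in the IgG tumors, 91.4, 57.1 and 77.2 CPM in the CD8L tumors and 480, 415 and 274 CPM in the CD8H tumors (log2 fold change 2.53, SE 0.79, edgeR unadjusted p = 0.0102), with only CD8L tumor 2 inside the IgG range. Gbp4 was 256, 156 and 147 CPM in the IgG tumors, 326, 206 and 318 CPM in the CD8L tumors and 1761, 1405 and 1061 CPM in the CD8H tumors (log2 fold change 2.18, SE 0.75, edgeR unadjusted p = 0.0167). Gbp2 (ENSMUSG00000028270, chromosome 3 from 142620602 to 142638008) was 588, 426 and 402 CPM in the IgG tumors, 1128, 468 and 640.1 CPM in the CD8L tumors and 3083, 2411 and 1760 CPM in the CD8H tumors (log2 fold change 1.74, SE 0.60, edgeR unadjusted p = 0.0172), and Gbp6 had a log2 fold change of 1.18 (SE 0.43). Members of this family resemble each other in sequence, so the division of reads among them is uncertain. CD8L tumors 1 and 3 were above every IgG tumor for Gbp4, Gbp2 and Gbp6, and CD8L tumor 2 was not. Jak2, a kinase bound to the interferon gamma receptor, was the 1 gene of the list without overlap, and it is named for that after its values were seen. Jak2 was 85.5, 76.8 and 85.1 CPM in the IgG tumors, 90.9, 89.9 and 93.9 CPM in the CD8L tumors and 149.9, 139 and 114 CPM in the CD8H tumors, a log2 fold change of 0.45 (SE 0.19).

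The 31 genes of the type I interferon response list, which cells switch on after interferon alpha or beta, all had positive fold changes too, with 5 at an unadjusted p up to 0.05 and a median of 0.59 (0.04 in CD8L and 1.02 in CD8H tumors). That count was 14 without IgG tumor 1, 1 and 2 without IgG tumors 2 and 3, 10, 14 and 9 without CD8L tumors 1, 2 and 3, and 3 without CD8H tumor 1 or 3. Ifit1, which binds viral RNA that lacks host cap methylation, had the smallest p of the protein-coding genes with higher levels and a mean log2 CPM of at least 0. Ifit1 (ENSMUSG00000034459, chromosome 19 from 34640871 to 34650009) was 169, 108 and 128 CPM in the IgG tumors, 213, 166 and 192 CPM in the CD8L tumors and 269, 317 and 289.5 CPM in the CD8H tumors (log2 fold change 0.83, SE 0.24, edgeR unadjusted p = 0.00609). CD8L tumor 2 was just inside the IgG range and the other treated tumors were above it. Ifit3b was 108, 64.2 and 81.7 CPM in the IgG tumors, 127, 96.9 and 110.5 CPM in the CD8L tumors and 197, 219 and 186 CPM in the CD8H tumors (log2 fold change 0.88, SE 0.30, edgeR unadjusted p = 0.0155). Its neighbor Ifit2 was 213, 138 and 165 CPM in the IgG tumors, 239.9, 206 and 228 CPM in the CD8L tumors and 867, 773 and 529 CPM in the CD8H tumors (log2 fold change 1.46, SE 0.54, edgeR unadjusted p = 0.0226), and Ifit3 had a log2 fold change of 0.77 (SE 0.30). In these genes the lowest CD8H tumor was above the highest CD8L tumor, and the CD8L tumors lay in the upper part of the IgG range or above it.

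The promoters of Gbp2, Ifit1 and Ifit3b are shown as examples of interferon-induced genes with an unadjusted p up to 0.05 that the promoter table holds, and they were picked after their values were known. Each runs from 250 bases before to 50 bases after the start site (RefSeq, GRCm38.p6, 5′ to 3′), and capitals mark matches to the core of the interferon-stimulated response element, searched as GAAANNGAA on both strands.
Gbp2, chr3:142620413-142620712 on the plus strand: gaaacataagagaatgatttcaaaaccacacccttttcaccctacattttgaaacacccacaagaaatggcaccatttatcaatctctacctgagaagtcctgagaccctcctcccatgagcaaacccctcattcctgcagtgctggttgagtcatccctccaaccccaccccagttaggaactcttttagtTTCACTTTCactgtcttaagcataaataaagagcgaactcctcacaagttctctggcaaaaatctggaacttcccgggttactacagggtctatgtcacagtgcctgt
Ifit1, chr19:34640639-34640938 on the plus strand: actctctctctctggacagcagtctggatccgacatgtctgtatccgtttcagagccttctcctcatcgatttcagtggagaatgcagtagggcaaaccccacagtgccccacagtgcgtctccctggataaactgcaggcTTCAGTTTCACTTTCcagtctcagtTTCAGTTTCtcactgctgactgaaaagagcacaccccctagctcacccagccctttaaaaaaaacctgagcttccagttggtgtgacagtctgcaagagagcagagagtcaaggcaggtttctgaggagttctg
Ifit3b, chr19:34607707-34608006 on the plus strand: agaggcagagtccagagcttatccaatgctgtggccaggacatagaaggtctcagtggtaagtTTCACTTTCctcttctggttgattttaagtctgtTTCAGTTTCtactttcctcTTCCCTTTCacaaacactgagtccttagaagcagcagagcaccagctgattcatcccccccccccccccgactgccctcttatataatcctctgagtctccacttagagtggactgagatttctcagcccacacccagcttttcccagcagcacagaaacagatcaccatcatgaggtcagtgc
Gbp2 had 1 match, Ifit1 had 3, the first 2 of which overlap, and Ifit3b had 3, all on the strand opposite to transcription. The motif was found in 8.57% of 27025 promoters of this length. It was found in 14 of 22 interferon gamma response genes (63.6%) and in 14 of 23 type I genes (60.9%) that the promoter table holds. These matches describe the sequence only.

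Genes of antigen presentation were above IgG in CD8H tumors and near or below IgG in CD8L tumors. All 24 MHC class I genes had a positive pooled fold change with 0 at an unadjusted p up to 0.05, and the median was 0.81 (-0.04 in CD8L, 1.31 in CD8H). Tap2, a subunit of the peptide transporter, was 100.5, 56.5 and 69.8 CPM in the IgG tumors, 106, 57.5 and 83.9 CPM in the CD8L tumors and 272, 180.5 and 169 CPM in the CD8H tumors, a pooled log2 fold change of 0.94 (SE 0.46). H2-T23, which encodes the nonclassical molecule Qa-1, was 104, 65.8 and 55.9 CPM in the IgG tumors, 94.4, 40.7 and 77.7 CPM in the CD8L tumors and 491, 382 and 246 CPM in the CD8H tumors, a log2 fold change of 1.56 (SE 0.77). All 14 class II genes were positive as well, with a median of 1.23 that joined -0.55 in CD8L to 2.02 in CD8H tumors. It was 0.71 without CD8H tumor 1 and 0.67 when CD8L and CD8H tumors had separate means of equal weight. In that fit the medians of the other immune lists with higher values were smaller too, among them 1.35 for T cell markers, 1.03 for cytotoxic effectors and 0.87 for the interferon gamma response. The 1 gene with an unadjusted p up to 0.05 was Ciita, the master regulator of class II transcription, at 42.1, 21.7 and 27.8 CPM in the IgG tumors, 42.3, 23.2 and 35.9 CPM in the CD8L tumors and 199, 136 and 107 CPM in the CD8H tumors (log2 fold change 1.57, SE 0.69, edgeR unadjusted p = 0.0478). H2-DMa, a chain of the peptide exchange factor, was 31.9, 26.9 and 25.4 CPM in the IgG tumors, 33.9, 14.8 and 29.6 CPM in the CD8L tumors and 207, 123 and 86.7 CPM in the CD8H tumors. The class II list mean differed by 1.53 log2 units between pairs of treated tumors and by 0.41 between IgG tumors.

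T cell and cytotoxic genes had the largest median fold changes of the lists, and they differed widely among treated tumors. Pairs of treated tumors differed by a median of 2.19 log2 units for T cell markers and 2.04 for cytotoxic genes, below the 2.42 of neuron markers and the 2.40 of oligodendrocyte markers. The CD8H and CD8L labels rest on CD8+ T cells, so the position of each subgroup in these genes is not independent of the labels. The pooled fit does not use the labels, but its treated group joins 3 tumors of each. Its mean and spread in these genes therefore depend on that mix, while the IgG tumors were not divided. All 24 T cell markers were positive with a median of 1.93 (-0.21 in CD8L and 2.74 in CD8H), and 3 had an unadjusted p up to 0.05, a count of 0 without any 1 of the IgG or CD8H tumors and of 9, 18 and 5 without CD8L tumors 1, 2 and 3. Cd8a was 8.51, 4.32 and 3.597 CPM in the IgG tumors, 4.18, 1.86 and 7.13 CPM in the CD8L tumors and 126, 53.1 and 34.6 CPM in the CD8H tumors, a log2 fold change of 2.78 (SE 1.302). Its mean was raised by the CD8H tumors, whereas CD8L tumor 2 had the lowest value of all 9. Themis, a signaling protein of developing and mature T cells, was 1.16, 0.78 and 0.615 CPM in the IgG tumors, 0.852, 0.675 and 1.69 CPM in the CD8L tumors and 16.9, 6.97 and 6.15 CPM in the CD8H tumors (log2 fold change 2.69, SE 1.09, edgeR unadjusted p = 0.0347). Cd5 and Cd3g, both parts of the T cell surface, had log2 fold changes of 1.89 (SE 0.83) and 2.66 (SE 1.18). Of 17 cytotoxic effector genes 16 were positive, with a median of 1.65 and 5 at an unadjusted p up to 0.05, a count of 1 without any 1 of the IgG tumors, of 1, 2 and 1 without CD8H tumors 1, 2 and 3 and of 13 without CD8L tumor 2. Gzmb, the protease that killer cells deliver into targets, was 9.16, 4.502 and 4.31 CPM in the IgG tumors, 13.3, 3.38 and 8.68 CPM in the CD8L tumors and 193, 118 and 40.9 CPM in the CD8H tumors (log2 fold change 3.39, SE 1.32, edgeR unadjusted p = 0.029). CD8L tumor 1 was above the IgG values, CD8L tumor 3 was inside them, CD8L tumor 2 was below them and CD8H tumors were all above it. Prf1, which forms the pore for granzymes, was 5.23, 2.701 and 2.37 CPM in the IgG tumors, 4.501, 2.14 and 4.001 CPM in the CD8L tumors and 54.3, 29.7 and 14.4 CPM in the CD8H tumors (log2 fold change 2.40, SE 1.07, edgeR unadjusted p = 0.0498), and Gzmk had a log2 fold change of 3.07 (SE 1.27). Ifng was 1.86, 0.96 and 0.71 CPM in the IgG tumors, 1.99, 0.619 and 1.06 CPM in the CD8L tumors and 14.9, 12.5 and 5.74 CPM in the CD8H tumors, a log2 fold change of 2.38 (SE 1.07). Of 26 NK cell receptor genes 23 were positive, 0 had an unadjusted p up to 0.05, and the median was 0.81 (-0.52 and 1.46 in the subgroups). Klrd1, which pairs with NKG2 receptors on NK cells and CD8+ T cells, was 5.74, 2.82 and 2.22 CPM in the IgG tumors, 2.31, 1.91 and 4.72 CPM in the CD8L tumors and 41.9, 19.7 and 15.3 CPM in the CD8H tumors.

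The receptors that the antibodies target and their ligands followed the same division. Pdcd1 was 3.62, 1.501 and 2.46 CPM in the IgG tumors, 2.19, 0.394 and 3.18 CPM in the CD8L tumors and 58.02, 21.9 and 17.01 CPM in the CD8H tumors, a log2 fold change of 2.75 (SE 1.36). Ctla4 was 3.92, 2.46 and 1.99 CPM in the IgG tumors, 5.03, 0.9 and 5.495 CPM in the CD8L tumors and 28, 18.8 and 18.3 CPM in the CD8H tumors (log2 fold change 2.19, SE 0.93, edgeR unadjusted p = 0.0416). For Pdcd1 and Ctla4, CD8L tumor 2 was the lowest of all 9 tumors and each CD8H tumor was above every IgG tumor. Cd274, which encodes PD-L1, was 92.3, 57.6 and 59.4 CPM in the IgG tumors, 94.2, 71.9 and 109 CPM in the CD8L tumors and 384, 343 and 223 CPM in the CD8H tumors (log2 fold change 1.55, SE 0.58, edgeR unadjusted p = 0.025). Here CD8L tumors 1 and 3 were above all IgG tumors and CD8L tumor 2 was inside their range. Pdcd1lg2 was 0.755, 0.54 and 0.852 CPM in the IgG tumors, 0.649, 0.338 and 1.35 CPM in the CD8L tumors and 16, 6.01 and 3.54 CPM in the CD8H tumors, a log2 fold change of 2.69 (SE 1.20). Cd28 was 2.82, 1.86 and 1.89 CPM in the IgG tumors, 2.23, 0.675 and 3.08 CPM in the CD8L tumors and 25.7, 15.9 and 12.7 CPM in the CD8H tumors, a log2 fold change of 2.19 (SE 1.04). Among the CTLA-4 ligands, Cd86 had a log2 fold change of 1.13 (SE 0.70) and Cd80 one of 0.41 (SE 0.53), with CD8L tumors at 2.19, 2.19 and 3.52 CPM against 4.38, 3.601 and 4.07 CPM in IgG. Of 25 tested checkpoint receptors and ligands 23 were positive and 4 had an unadjusted p up to 0.05, among them Icos, a costimulatory receptor, at 2.53 (SE 0.99) and Tnfrsf9, which encodes 4-1BB, at 1.92 (SE 0.84). The count of 4 was 1, 0 and 0 without IgG tumors 1, 2 and 3, 1, 2 and 2 without CD8H tumors 1, 2 and 3, 6 and 10 without CD8L tumors 1 and 2, and 1 with the replicate block. In the regulatory T cell list 11 of 14 were positive. Ikzf2, which encodes Helios, was 16.5, 10.6 and 12.5 CPM in the IgG tumors, 14.2, 16.03 and 18.7 CPM in the CD8L tumors and 33.4, 26.2 and 27.1 CPM in the CD8H tumors (log2 fold change 0.77, SE 0.30, edgeR unadjusted p = 0.03), and Foxp3, the defining transcription factor, had a log2 fold change of 1.46 (SE 0.69).

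Chemokines, the attractants of leukocytes, differed in which treated tumors were high. Of 28 tested, 22 had a positive fold change, 6 had an unadjusted p up to 0.05, and the median was 0.74 (-0.18 in CD8L and 1.20 in CD8H). The count of 6 was 1 and 2 without IgG tumors 2 and 3, 2 without CD8H tumor 1 or 2 and 9 without CD8L tumor 2. The monocyte attractants Ccl7 and Ccl2 had higher means in both subgroups. Ccl7 (ENSMUSG00000035373, chromosome 11 from 82045712 to 82047525) was 6.34, 5.76 and 6.44 CPM in the IgG tumors, 19.2, 10.8 and 6.32 CPM in the CD8L tumors and 22.8, 22.04 and 11.99 CPM in the CD8H tumors (log2 fold change 1.33, SE 0.41, edgeR unadjusted p = 0.00942). Ccl2 was 12.2, 9.12 and 11.6 CPM in the IgG tumors, 29.2, 16.5 and 10.7 CPM in the CD8L tumors and 29.4, 32.3 and 15.3 CPM in the CD8H tumors (log2 fold change 1.02, SE 0.37, edgeR unadjusted p = 0.0213). For both genes CD8L tumors 1 and 2 were above every IgG tumor, and CD8L tumor 3 was at IgG level. For the T cell list mean, CD8L tumor 3 was instead the highest of the CD8L tumors and tumor 2 the lowest.

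The CXCR3 ligands recruit activated T cells. Cxcl9 was 204, 108 and 119.7 CPM in the IgG tumors, 249, 115 and 161 CPM in the CD8L tumors and 976, 767 and 503 CPM in the CD8H tumors (log2 fold change 1.68, SE 0.70, edgeR unadjusted p = 0.0394). Cxcl10 was 551, 346 and 356 CPM in the IgG tumors, 660.2, 296 and 439 CPM in the CD8L tumors and 1551, 1019 and 961 CPM in the CD8H tumors, a log2 fold change of 0.97 (SE 0.49), and Cxcl11 was 24.7, 9.54 and 13.1 CPM in the IgG tumors, 31.1, 13.6 and 20.9 CPM in the CD8L tumors and 124, 89.9 and 61.4 CPM in the CD8H tumors (log2 fold change 1.84, SE 0.73, edgeR unadjusted p = 0.0315). In all of them CD8L tumor 1 was above the IgG tumors, CD8L tumors 2 and 3 were within or near their range and the CD8H tumors were the highest. Ccl3, an inflammatory chemokine gene, had a log2 fold change of 1.88 (SE 0.73). Cxcl16, the membrane-bound ligand of CXCR6, was 29.2, 15.2 and 19.2 CPM in the IgG tumors, 17.6, 10.1 and 18.03 CPM in the CD8L tumors and 84.5, 63.8 and 50.4 CPM in the CD8H tumors, a log2 fold change of 0.94 (SE 0.66), and its CD8L values did not exceed the IgG values. Cxcr6 was 4.08, 1.62 and 2.08 CPM in the IgG tumors, 2.27, 2.25 and 2.603 CPM in the CD8L tumors and 64.7, 22.1 and 16.6 CPM in the CD8H tumors (log2 fold change 2.82, SE 1.25, edgeR unadjusted p = 0.0485), and Cxcr3 had a log2 fold change of 0.81 (SE 0.54). Ccl22, a ligand of CCR4 made by dendritic cells and macrophages, was 8.91, 7.44 and 8.04 CPM in the IgG tumors, 3.16, 2.48 and 4.05 CPM in the CD8L tumors and 35.9, 8.26 and 10.7 CPM in the CD8H tumors, so the CD8L tumors were all below IgG. Its pooled log2 fold change of 0.40 (SE 0.81) was -0.49 without CD8H tumor 1. Ccl19 was left untested, with 0, 0 and 2 counts in the IgG tumors, 0 in each CD8L tumor and 2, 1 and 2 in the CD8H tumors. Ccr4, the receptor for Ccl22, had a log2 fold change of 2.08 (SE 0.81).

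Of 11 genes for the adhesion of T cells to vessels, 9 were positive, 0 had an unadjusted p up to 0.05 and the median was 0.31 (-0.45 in CD8L and 0.84 in CD8H). Vcam1 was 22.04, 24.9 and 24.6 CPM in the IgG tumors, 13.2, 10.01 and 25.9 CPM in the CD8L tumors and 97.3, 95.2 and 54.2 CPM in the CD8H tumors, a log2 fold change of 1.05 (SE 0.73). Icam1 was 20.2, 14.1 and 16.04 CPM in the IgG tumors, 13.4, 8.78 and 13.3 CPM in the CD8L tumors and 63.5, 48.6 and 33.1 CPM in the CD8H tumors, a log2 fold change of 0.85 (SE 0.62). For both genes the CD8H values lay above the IgG values, and those of CD8L tumors 1 and 2 lay below.

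Myeloid genes showed the same division at a smaller size. Of 22 macrophage markers 21 were positive with a median of 0.52 (-0.39 in CD8L, 1.12 in CD8H), and 1 had an unadjusted p up to 0.05, Nos2, which encodes inducible nitric oxide synthase. It was 1.86, 1.08 and 2.08 CPM in the IgG tumors, 2.47, 1.18 and 2.603 CPM in the CD8L tumors and 37.3, 42.2 and 7.94 CPM in the CD8H tumors (log2 fold change 3.21, SE 1.29, edgeR unadjusted p = 0.0333). Arg1, which encodes the enzyme that competes with it for arginine, was 1.76, 0 and 0.284 CPM in the IgG tumors, 1.46, 0.394 and 0.82 CPM in the CD8L tumors and 35.95, 11.8 and 6.61 CPM in the CD8H tumors, with the highest values in the CD8H tumors. The scavenger receptor Msr1 had a log2 fold change of 0.94 (SE 0.43) and its highest CD8L value in tumor 1. Microglia markers had a median of 0.04 with 7 of 14 positive, dendritic cell markers 0.36 with 17 of 20, complement genes 0.64 with 16 of 16 and NF-kappa B genes 0.29 with 23 of 24, and none of their genes had an unadjusted p up to 0.05. The dendritic cell median was 0.05 with 11 of 20 positive without CD8H tumor 1, 0 with 10 positive when the subgroups had separate means and -0.02 with 9 positive on log2(FPKM + 1). Il12rb1, a receptor chain for interleukin 12, led the cytokines and receptors, of which 35 of 37 were positive, at 2.04 (SE 0.84). Cd79a, a B cell receptor chain, was 0.906, 0.42 and 0.426 CPM in the IgG tumors, 0.77, 0.9 and 0.82 CPM in the CD8L tumors and 3.76, 1.63 and 2.05 CPM in the CD8H tumors, the 1 gene of 12 B cell markers at an unadjusted p up to 0.05.

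**Figure D5:**
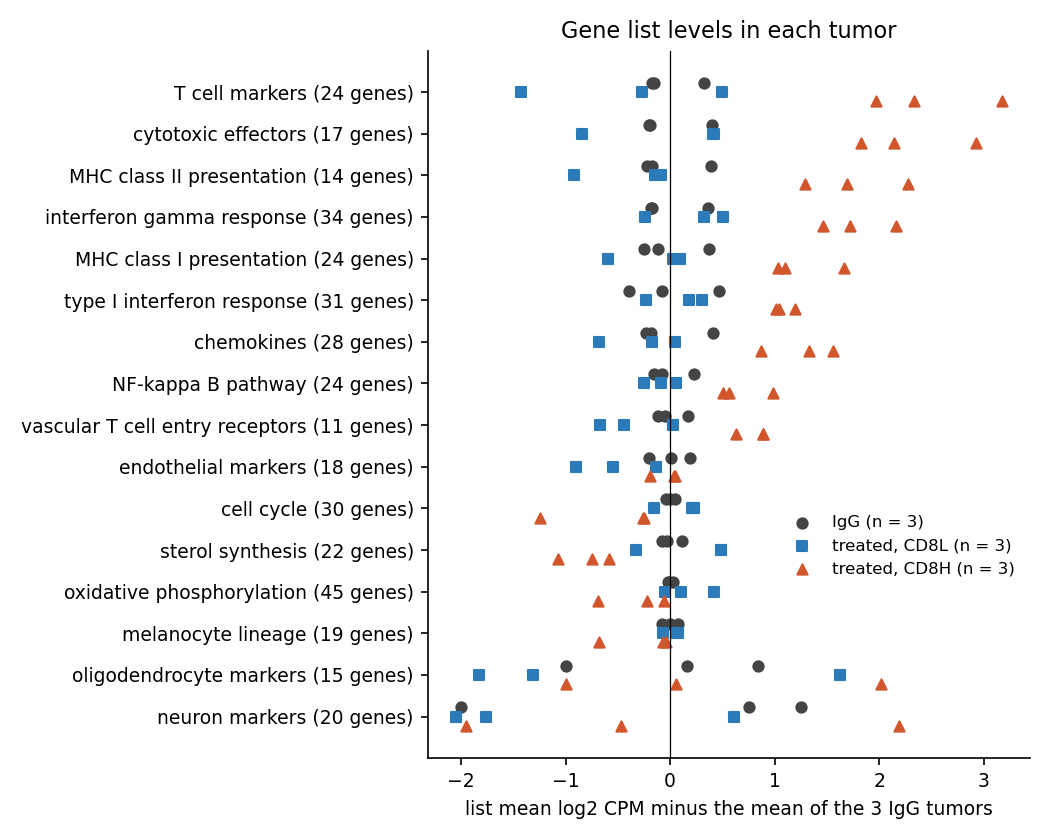
Mean log2 CPM of 16 gene lists in each tumor, as the difference from the mean of the 3 IgG tumors (x axis), 1 point per tumor. For the immune lists at the top, the CD8H tumors (triangles) lie to the right of the IgG tumors (circles) while the CD8L tumors (squares) scatter around or left of them. Sterol synthesis and cell cycle have the CD8H tumors on the left, and the neuron and oligodendrocyte lists are wide in every group.

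In other genes the subgroups lay on opposite sides of the IgG tumors, so that the pooled mean joined shifts of opposite sign. All CD8H values were above and all CD8L values below the IgG values in 171 genes (0.993% of those tested), and the reverse held in 104 (0.604%). Ccr7, the receptor that guides naive T cells and dendritic cells to lymph nodes, was 10.3, 5.102 and 5.92 CPM in the IgG tumors, 2.64, 1.07 and 3.42 CPM in the CD8L tumors and 27.7, 12.8 and 11.1 CPM in the CD8H tumors. Its pooled log2 fold change of 0.46 (SE 0.88) joined -1.57 in CD8L to 1.28 in CD8H tumors and was -0.19 without CD8H tumor 1. Selplg, which encodes the selectin ligand PSGL-1, was 29.3, 35.05 and 35.9 CPM in the IgG tumors, 20.3, 11.9 and 27.7 CPM in the CD8L tumors and 96.7, 68.2 and 64.1 CPM in the CD8H tumors, a pooled log2 fold change of 0.53 (SE 0.59). Lif, a cytokine of the interleukin 6 family, was 5.59, 3.72 and 5.06 CPM in the IgG tumors, 1.91, 1.46 and 3.13 CPM in the CD8L tumors and 20.96, 11.4 and 5.89 CPM in the CD8H tumors. The other genes of this pattern by the naming rule were Pld2, a phospholipase, Cd300c2, a myeloid receptor, Mmp25, a leukocyte metalloprotease, Aoah, which deacylates lipopolysaccharide, and Nr1h3, which encodes LXR alpha, with pooled log2 fold changes from 0.27 to 1.00. In the reverse direction, Padi2, a peptidylarginine deiminase, was 148, 184 and 207 CPM in the IgG tumors, 269.6, 297 and 249 CPM in the CD8L tumors and 106, 84.9 and 98.2 CPM in the CD8H tumors, a pooled log2 fold change of 0.03 (SE 0.43). The steroid reductase gene Srd5a1 was 8.203, 8.58 and 9.13 CPM in the IgG tumors, 13.1, 13.6 and 9.64 CPM in the CD8L tumors and 5.11, 4.72 and 6.66 CPM in the CD8H tumors. Echdc1, Rps6ka6, Ttpa, Sgo2a, Cyp39a1 and Mmgt1 had the same order of groups and pooled log2 fold changes between -0.03 and 0.18.

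Sterol synthesis, the pathway that makes cholesterol from acetyl-CoA, had this reverse order in its subgroup medians but not in every tumor. Its list mean was 5.75, 5.94 and 5.80 in the IgG tumors, 6.32, 6.32 and 5.50 in the CD8L tumors and 5.08, 4.76 and 5.25 in the CD8H tumors log2 CPM. CD8L tumors 1 and 2 were above the IgG tumors, and the other 4 treated tumors were below them. The pooled median was -0.12 (0.31 in CD8L and -0.74 in CD8H), 5 of 22 genes were positive, and pairs of tumors differed by 0.78 among treated and 0.13 among IgG tumors. Without CD8H tumor 2 the pooled median was 0.03 with 14 of 22 positive, and over the other tumors left out in turn it was -0.31 to -0.03. The cell cycle list, at 7.33, 7.29 and 7.38 in the IgG tumors, 7.56, 7.54 and 7.18 in the CD8L tumors and 7.08, 6.09 and 7.07 in the CD8H tumors, had all 30 pooled fold changes below 0 with a median of -0.17 and had 0 genes at an unadjusted p up to 0.05. CD8H tumor 2 was far below the rest, and without it 12 of 30 were positive and the median was -0.01. Mcm3, part of the replicative helicase, was 366, 371 and 419 CPM in the IgG tumors, 435, 385 and 328 CPM in the CD8L tumors and 314, 149 and 314 CPM in the CD8H tumors. In oxidative phosphorylation, 15 of 45 nuclear genes were positive with a median of -0.04, and pairs differed by 0.44 among treated and 0.03 among IgG tumors. Without CD8H tumor 2, which also held the lowest melanocyte mean and the highest neuron mean of the 9 tumors, 36 of 45 were positive with a median of 0.07. With the neuron mean as a covariate the medians were -0.14 for oxidative phosphorylation, -0.35 for the cell cycle and -0.36 for sterol synthesis.

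The genes with the widest spread among treated tumors were mostly those of normal brain. By the SD of log2 CPM, the first 12 with a sufficient level included Mobp, which encodes a myelin protein, Shank1, Cplx1, Adcy1, Slc24a2 and Nrsn1, which neurons express, and the noncoding RNAs Meg3 and Snhg11. Mobp was 13.1, 194 and 66.5 CPM in the IgG tumors, 14.3, 8.04 and 288 CPM in the CD8L tumors and 7.71, 389.6 and 46.3 CPM in the CD8H tumors. CD8L tumor 3 and CD8H tumor 2 were high, as was IgG tumor 2, so this variation was not confined to treated tumors or to either subgroup. The division into CD8H and CD8L held 2.22% of the sum of squares among treated tumors for Mobp. Gzmb was the 1 immune gene of the 12, and there the division held 81.9%. Ppp1r1b, Scn4b and Adcy5, named for their SD, had a larger SD among IgG than among treated tumors, whereas 13 of the 20 neuron markers differed more between pairs of treated than between pairs of IgG tumors. Ppp1r1b, which encodes the striatal phosphoprotein DARPP-32, was 1.76, 113 and 134 CPM in the IgG tumors, 16.9, 11.5 and 32.01 CPM in the CD8L tumors and 1.88, 235 and 4.87 CPM in the CD8H tumors, and Scn4b and Adcy5 had IgG tumor 1 at 2.01 and 4.33 CPM and IgG tumors 2 and 3 between 101 and 128 CPM. Col3a1, a fibrillar collagen, was high in IgG tumor 1 and CD8H tumor 1, at 168 and 115 CPM, and at most 30.9 CPM elsewhere.

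Set separately against the same 3 IgG tumors, the subgroups gave unequal numbers of calls. edgeR called 0 genes (0%) in CD8L tumors, with 290 at an unadjusted p up to 0.05 (DESeq2 called 1), and 376 higher (2.18%) and 39 lower genes (0.226%) in CD8H tumors. The 415 calls of the CD8H comparison depended on single libraries, with 0 without IgG tumor 2, IgG tumor 3, CD8L tumor 1, CD8H tumor 1 or CD8H tumor 2, and 120 without IgG tumor 1. Between the treated subgroups themselves 1040 genes were called higher (6.04%) and 492 lower (2.86%) in CD8H tumors, 1532 in all. This number was 0 without CD8L tumor 1, CD8L tumor 2 or CD8H tumor 1, 824 and 666 without IgG tumors 2 and 3 and 386 without CD8H tumor 2. The smallest adjusted p-values were close to the threshold, at 0.0392 in edgeR for CD8H against IgG and 0.019 for CD8H against CD8L. The interferon gamma list had 19 of 34 genes called in CD8H tumors against IgG and 25 of 34 called between the subgroups. For the T cell list these counts were 12 and 21 of 24, for the class I list 9 and 19 of 24, and for the class II list 8 and 12 of 14. The labels rest on CD8+ T cells in these same tumors, so calls of T cell genes are not independent of them. Of the sterol list, 14 of 22 were called lower in CD8H than in CD8L tumors and 0 in either subgroup against IgG. No gene of the endothelial list was called lower in any of these comparisons. Ly6c1, a surface protein gene of vessels and also of leukocytes, was called higher in CD8H tumors against IgG and against CD8L tumors (log2 fold changes 2.44 and 2.74), and Vwf, which encodes von Willebrand factor, was called higher in CD8H than in CD8L tumors, by 1.04.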

How the data were processed

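Polyadenylated RNA of whole tumors was sequenced. Per the submitters' processing notes, the authors used STAR 2.6.1d, StringTie 1.3.3b, featureCounts 1.5.0-p3 and DESeq2 1.26.0 with GRCm38.p6. The authors deposited unnormalized counts per gene, and FPKM values that scale those counts by library total and a length per gene. Strandedness and the annotation used for counting were not given in the sources used here, and overlapping genes cannot be told apart.

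The counts were tested with edgeR 4.0.16 (R 4.3.3, quasi-likelihood, TMM, filterByExpr, 7 residual degrees of freedom). Log2 CPM used a prior count of 2. Named genes followed rules on smallest p, absence of overlap, largest SD, opposite sides, list membership and mention by the study. The members and lists were chosen with earlier results of these data known. A symbol with several IDs was read as the ID with the highest count. Replicates differed beyond sampling noise (chi-square per degree of freedom 15.8 to 149). Scripts were tested on simulated data. Alternatives were other normalizations, filters, prior counts, DESeq2 1.42.0, limma 3.58.1, groupings, a neuron covariate, a replicate block and leaving out each library. The 3 libraries from NK cell-depleted mice entered only the fit of 12 libraries. Some genes and 1 motif that the rules gave are not reported here.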

Additional observations from a re-analysis of the deposited data

Results flagged for a closer look

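Over 129 values examined in the 6 treated tumors, 4 had 1 tumor apart from the other 5 by Dixon's test, which chance gives in about 1 of 20 groups. At that rate 129 values would give more than 4, and the values are not independent of each other. CD8H tumor 2 was low in the melanocyte list mean, at 7.83 log2 CPM with the nearest tumor at 8.44, in the cell cycle list mean, at 6.09 with the nearest at 7.07, and in Igfbp7, at 5.18 with the nearest at 5.73. CD8H tumor 1 was high in Ap3s1, at 6.18 log2 CPM with the nearest at 6.05. CD8H and CD8L tumors differed in 1532 genes by the edgeR test of the difference itself. This number fell to 0 without CD8L tumor 1, CD8L tumor 2 or CD8H tumor 1. The labels were read from these tumors after treatment, so the test compares treated tumors and estimates no effect of blockade.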

How the results depend on the processing

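No alternative changed the count of 0 genes called for PC against IgG, by edgeR, DESeq2 or limma, and over the 21 alternatives 89 to 2157 genes had an unadjusted p up to 0.05 (2157 by limma voom, 1 library left out 89 to 624). Over these alternatives, medians of the 37 lists differed in sign from the main value, or were 0, in 70 cases. The single genes followed included those named for a small p or for lack of overlap in the main fit. That choice leaves little room for a change of direction. Of 91 genes followed, 88 kept the direction of their fold change in every alternative that tested them. The exceptions were Ccl22, at -0.017 by limma voom, -0.146 by limma on log2(FPKM + 1), -0.081 in the fit of 3 groups and -0.063 in that of 12 libraries, with -0.493 to 0.627 over the tumors left out, Ccr7, at -0.019 by limma on log2(FPKM + 1), -0.148 and -0.137 in the same fits and -0.186 to 0.826 over the tumors left out, and Mmp12, at -4.907 to 0.055 over the tumors left out.

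Counts for the subgroups moved more. CD8H against IgG gave 254 genes with RLE normalization, 1420 with DESeq2, 2646 with limma voom, 968 with limma on log2(FPKM + 1), 129 in the fit of 12 libraries and 1685 with the neuron covariate, and 0 to 367 with 1 library left out. CD8L against IgG gave 1 gene with DESeq2. CD8H against CD8L gave 2975 with DESeq2, 3151 with limma voom and 2703 with the neuron covariate, and 0 to 2207 with 1 library left out. Genes without overlap between arms were 103 to 438 higher and 69 to 241 lower with 1 library left out, 173 and 176 after regression on the neuron mean, and 82 lower on either FPKM scale. Apart from the removal of samples, the cause was not tested.

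Deviations of same-numbered tumors correlated at 0.411 to 0.733 for the tumors numbered 1, which share a low neuron mean, at -0.366 to 0.684 for those numbered 2 and at -0.062 to 0.103 for those numbered 3. Since not every pair was above 0.1, the numbers were not taken to pair the tumors. The fit with the replicate number as a block gave 0 genes for PC against IgG, 190 at an unadjusted p up to 0.05, and 614 for CD8H against IgG. The covariate for host sex was not run, because the 4 Y-linked genes examined had 0 counts in all tumors. With 6 tumors in subgroups that diverge against 3 controls, small shifts were not detectable, and large estimated shifts also went uncalled. None of the 690 genes with a pooled log2 fold change above 1 was called.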
